A study of Mus musculus with 72 samples.

Results

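Neutrophils are the first leukocytes to enter an inflamed colon, and their maturation in the bone marrow can be read from the genes they transcribe. Genes of the primary granules are transcribed first, in promyelocytes, those of the specific granules next, in myelocytes and metamyelocytes, and receptors that serve migration and activation last, in the mature cell that leaves the marrow. The set described here holds 10 genes of this sequence. Ngp (neutrophilic granule protein), Camp (the cathelicidin antimicrobial peptide) and Ltf (lactoferrin, which binds iron) belong to the specific granules. Mmp8, neutrophil collagenase, is stored in granules as well. Csf3r is the receptor for granulocyte colony-stimulating factor, Fpr1 and Fpr2 are receptors for formylated peptides from bacteria and mitochondria, and Stfa2l1 is a member of the stefin A family of cysteine protease inhibitors. Cd177 is a surface glycoprotein of neutrophils, and Retnlg is a resistin-like protein.

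The 10 genes were chosen by name, and each was read on the probe set of 1 symbol with the highest mean over all arrays. Probe sets were found for 8 of them, among 18194 genes in all, each with 1 probe set. Fpr1 and Retnlg were not analysed here. Of the 8, 7 were bright enough to be tested with the other genes, 12535 in all; Camp, whose mean log2 level was 2.20, lay below the filter and is described separately. A gene that passes such a filter may do so through the group in which it is high.

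The values come from 72 arrays of colon RNA of wild type Balb/c mice. Each array is taken here as 1 mouse; the labels number the samples of a group but do not state that each is a separate animal, and p-values measure the spread between these samples. Colitis was induced in 64 of them with 70 µg per g body weight of trinitrobenzene sulfonic acid (TNBS) given into the rectum, and colons were taken on day 4. Before TNBS, mice had received the combination of TNFR-Ig and an antibody against TWEAK (n = 15), anti-TWEAK alone (n = 14), TNFR-Ig alone (n = 12), a control IgG2a against human CD20 (n = 15) or nothing (n = 8), with both antibodies at 10 mg/kg and TNFR-Ig, a fusion protein that binds the cytokine TNF, at 0.3 mg/kg; 8 further mice were naive. TWEAK is a cytokine related to TNF. TNFR-Ig mice received no control antibody, so that their comparison with control IgG mice also differs by that antibody. Experiments 10 and 7 hold 38 and 34 arrays. Naive mice belong to experiment 10 only. For 1 of them the labels disagree on the treatment, and it stayed with the naive mice its title names; leaving it out changed no member's call in either comparison with naive mice. Levels are the authors' log2 values, whose lowest value, 2.077, is shared by many probe sets and called the floor below; a value within 0.1 of it counts as at the floor. Levels of different probe sets cannot be set against each other, so each gene is compared between arrays only. Because whole colon was profiled, fewer neutrophils and less RNA per neutrophil cannot be told apart.

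The labelled tissue fitted its markers: Muc2, the main mucin of the colon, lay between 14.28 and 14.64 and Myh11, smooth muscle myosin, between 13.25 and 14.17 on all arrays. Array medians lay between 4.60 and 4.77. The Actb probe sets at the 3′ and 5′ ends, whose distance grows as RNA breaks down, differed by amounts that lay between 0.93 and 1.50. Pancreas genes varied widely inside every group, with summed levels on the log2 scale between 4.08 and 15.72 in combination, 4.06 and 15.37 in control IgG and 4.05 and 13.24 in naive mice; their part in the results was not tested.

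The 250 bases before the transcription start, as RefSeq gives it on GRCm38.p6, are shown for the 3 specific granule genes and for Stfa2l1 and Fpr2, the pair of members whose levels ran closest together. Ngp lies at chr9:110419558-110419807 (plus strand), Camp at chr9:109849457-109849706 (minus strand) and Ltf at chr9:111019042-111019291 (plus strand), all on 1 chromosome. The windows of Stfa2l1 and Fpr2 are at chr16:36156561-36156810 (plus strand) and chr17:17887574-17887823 (plus strand). Each is written 5′ to 3′ on the strand of its gene, and capitals mark TTGCNNAA on either strand, the core letters bound by C/EBP factors, which drive granulocyte genes.
Ngp: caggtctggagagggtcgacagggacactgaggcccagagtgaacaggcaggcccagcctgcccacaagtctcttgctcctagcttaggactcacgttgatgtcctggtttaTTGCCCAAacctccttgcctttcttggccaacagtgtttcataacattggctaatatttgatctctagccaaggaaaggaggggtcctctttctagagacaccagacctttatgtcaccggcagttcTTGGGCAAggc
Camp: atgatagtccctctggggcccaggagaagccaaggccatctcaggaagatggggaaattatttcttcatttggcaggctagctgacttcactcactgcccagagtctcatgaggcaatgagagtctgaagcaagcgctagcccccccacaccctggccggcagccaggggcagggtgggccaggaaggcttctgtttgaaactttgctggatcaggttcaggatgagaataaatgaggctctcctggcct
Ltf: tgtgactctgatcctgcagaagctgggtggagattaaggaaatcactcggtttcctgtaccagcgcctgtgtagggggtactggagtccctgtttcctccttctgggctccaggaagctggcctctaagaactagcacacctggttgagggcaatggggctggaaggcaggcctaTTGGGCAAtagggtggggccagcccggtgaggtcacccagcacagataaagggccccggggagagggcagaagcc
Stfa2l1: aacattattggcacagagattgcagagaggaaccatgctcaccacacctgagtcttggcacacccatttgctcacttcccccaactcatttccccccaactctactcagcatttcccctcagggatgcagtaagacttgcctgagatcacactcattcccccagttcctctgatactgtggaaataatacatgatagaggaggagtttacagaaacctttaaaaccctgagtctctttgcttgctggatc
Fpr2: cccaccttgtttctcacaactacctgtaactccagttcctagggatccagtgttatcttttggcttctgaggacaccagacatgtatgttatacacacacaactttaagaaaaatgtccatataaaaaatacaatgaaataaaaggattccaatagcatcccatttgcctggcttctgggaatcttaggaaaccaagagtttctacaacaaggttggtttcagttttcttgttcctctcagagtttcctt
Ngp held 2 matches, from 138 to 131 and from 11 to 4 bases before the start, and Ltf held 1, from 75 to 68 bases before it. Of the other measured members, Mmp8 had 1 match, from 19 to 12 bases before the start, and Camp, Stfa2l1, Fpr2, Csf3r and Cd177 had none. Such a match stood in 9.6% of the windows of 27025 genes. The windows of Csf3r (chr4:126024409-126024658) and Cd177 (chr7:24760312-24760561) lie before a start inside the listed gene span, not at its outer end. A second motif, GAGGAAG on either strand, which factors of the PU.1 kind bind, stood in 10.4% of the 27025 windows. It also stood in those of Mmp8 and Csf3r, and no 2 matches overlapped. These are matches of letters and not binding sites, and their absence says nothing of a factor.

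**Figure D1:**
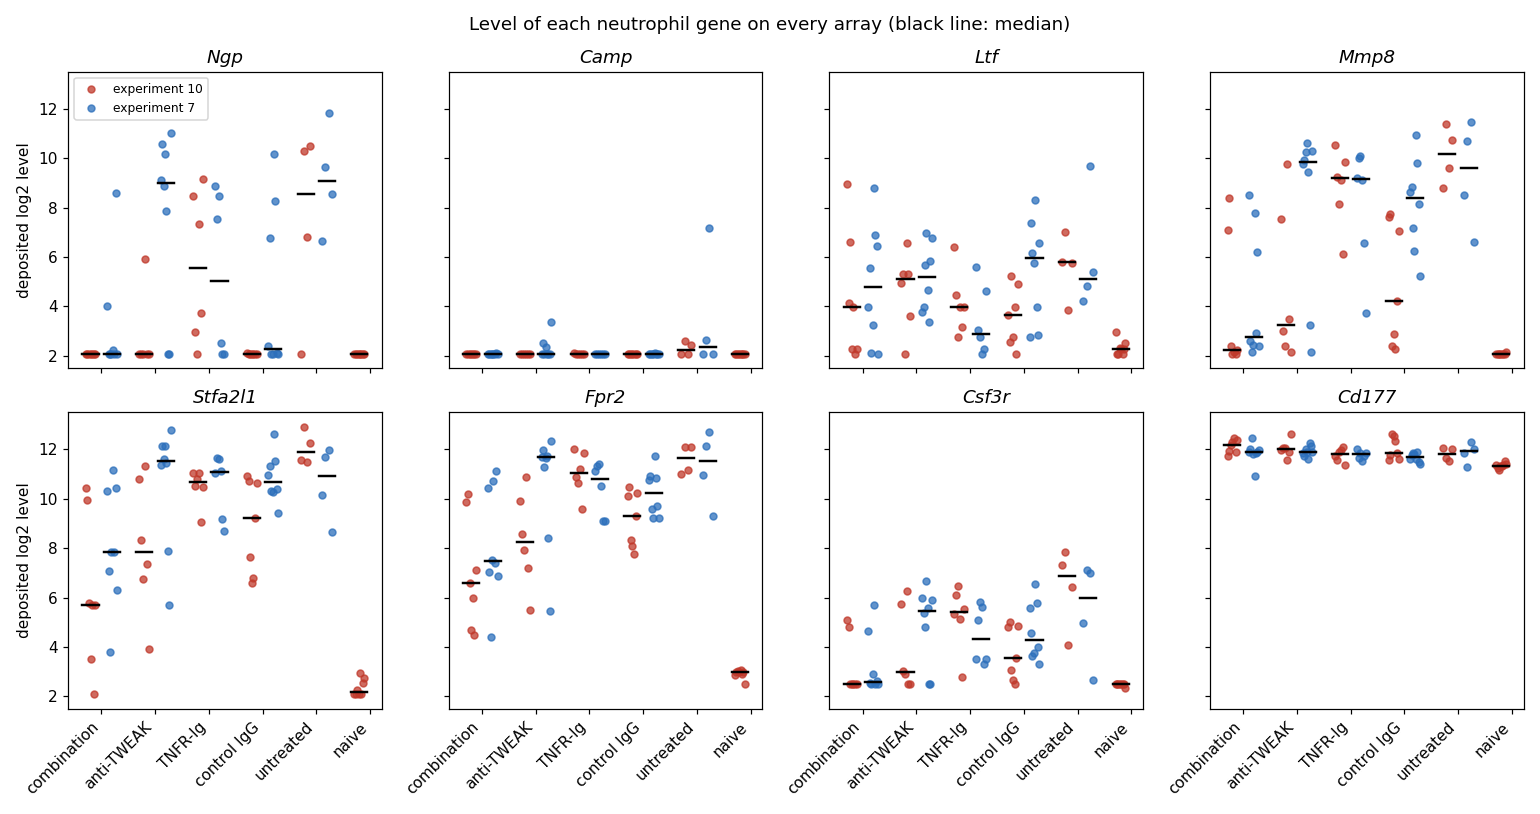
Deposited log2 level of the 8 measured genes on every array, by group from the combination (left) to naive mice (right), with experiment 10 left of experiment 7; each point is 1 mouse and black lines are medians. Ngp was at the floor on 34 of 64 colitic arrays and reached 11.84, and Camp was at the floor on nearly all arrays. Stfa2l1 and Fpr2 had higher medians in all colitic groups than in naive mice, but ran down to 2.08 and 4.42 in combination mice. Cd177 was high everywhere.

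Ngp was the member with the most uneven levels. Combination mice of experiment 10 were at the floor in 7 of 7 cases, and in experiment 7 5 of 8 were, while the others had 2.22, 4.01 and 8.58. Anti-TWEAK mice were at the floor in 5 of 6 cases in experiment 10, the remaining mouse having 5.92, and in 2 of 8 cases in experiment 7, where the other 6 had 7.87 to 11.02. The 2 experiments thus differed in how many anti-TWEAK mice had a level of this granule gene above the floor. TNFR-Ig mice spread widely, from 2.08 to 9.15 in experiment 10, with 1 of 6 at the floor, and from 2.08 to 8.87 in experiment 7, with 2 of 6 at the floor. With control IgG, Ngp was 2.08 to 2.11 in all 7 mice of experiment 10, while experiment 7 had 4 mice at the floor and 4 at 2.39, 6.76, 8.29 and 10.16. Untreated colitic mice had 2.09, 6.81, 10.31 and 10.49 in experiment 10 and 6.65, 8.54, 9.66 and 11.84 in experiment 7, against 2.08 in all 8 naive mice. Only 1 untreated mouse was thus at the level of the naive mice, and that mouse had 11.56 for Stfa2l1 and 11.01 for Fpr2.

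Group means of Ngp were 2.65 ± 1.71 in combination (SD, n = 15), 5.58 ± 3.83 in anti-TWEAK (n = 14), 5.44 ± 3.07 in TNFR-Ig (n = 12), 3.37 ± 2.69 in control IgG (n = 15), 8.30 ± 3.09 in untreated (n = 8) and 2.08 ± 0.00 in naive mice (n = 8). From the top the order was untreated, anti-TWEAK, TNFR-Ig, control IgG, combination and naive, and no pair of neighbours in it differed by more than the larger of their SDs.

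Camp was measured at the floor on 57 of 64 colitic arrays. It stood above the floor in 3 of 14 anti-TWEAK mice, at 2.35, 2.51 and 3.37, and in 4 of 8 untreated mice, at 2.42 and 2.60 in experiment 10 and 2.63 and 7.17 in experiment 7. All 15 combination, 12 TNFR-Ig, 15 control IgG and 8 naive mice were at the floor. Each of the 7 arrays with Camp above the floor also had Ngp above it.

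Ltf, at the floor on 6 of 64 colitic arrays, was spread more evenly. Its levels ran from 2.08 over a median of 3.98 to 8.95 in combination, from 2.08 over 5.13 to 6.97 in anti-TWEAK, from 2.08 over 3.57 to 6.39 in TNFR-Ig, from 2.08 over 3.98 to 8.32 in control IgG, from 3.86 over 5.58 to 9.68 in untreated and from 2.08 over 2.27 to 2.95 in naive mice. The 5 colitic groups overlapped, and the untreated and naive groups did not.

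Genes of the primary granules, which precede the specific granules in maturation, gave no signal. Of 9 such genes and their regulators, 7 had probe sets. Mpo (myeloperoxidase), Elane (neutrophil elastase), Ctsg (cathepsin G), Fcnb (ficolin B) and Ms4a3 were at the floor on all 72 arrays and Prtn3 (proteinase 3) on 71, so that only Gfi1, a transcription factor that is not confined to neutrophils, was tested. At the floor, these probe sets bound the level from above only.

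Stfa2l1 and Fpr2 were above the highest naive level, 2.94 and 3.08, in every colitic mouse but 1, whose Stfa2l1 was at 2.08. Stfa2l1 averaged 7.20 ± 2.84 in combination, 9.55 ± 2.81 in anti-TWEAK, 10.53 ± 0.99 in TNFR-Ig, 9.96 ± 1.74 in control IgG, 11.34 ± 1.34 in untreated and 2.35 ± 0.35 in naive mice (SD, n = 15, 14, 12, 15, 8 and 8). Of 15 combination mice, 1 was at 2.08 and the others lay between 3.52 and 11.17, whereas the 7 control IgG mice of experiment 10, all at the floor for Ngp, had 6.59 to 10.94. Fpr2 averaged 7.63 ± 2.32 in combination, 9.61 ± 2.42 in anti-TWEAK, 10.73 ± 0.99 in TNFR-Ig, 9.75 ± 1.13 in control IgG, 11.43 ± 1.06 in untreated and 2.92 ± 0.18 in naive mice. For both genes the combination stood lowest of the colitic groups and untreated mice highest, and all 5 colitic groups overlapped.

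Csf3r read 2.52 in 7 of 8 naive mice and 2.34 in the remaining 1. It averaged 3.23 ± 1.17 in combination, 4.46 ± 1.66 in anti-TWEAK, 4.85 ± 1.23 in TNFR-Ig, 4.24 ± 1.19 in control IgG, 5.93 ± 1.82 in untreated and 2.50 ± 0.06 in naive mice. The median combination mouse, at 2.52, was level with the median naive mouse, at 2.52. The lowest combination, anti-TWEAK and control IgG mice also read 2.52. Because this value recurs, it may be the background of the probe set, and equal medians need not mean equal levels.

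Mmp8 spread widely within each treated group. In combination mice its levels ran from 2.08 over a median of 2.42 to 8.51, and in anti-TWEAK mice from 2.17 over 8.50 to 10.60. TNFR-Ig mice ran from 3.72 over 9.17 to 10.55, control IgG mice from 2.29 over 7.17 to 10.93, untreated mice from 6.60 over 10.15 to 11.47 and naive mice from 2.08 over 2.08 to 2.17. TNFR-Ig, control IgG and untreated mice did not overlap with the naive mice. Combination mice did, and the lowest anti-TWEAK level, 2.17, equalled the highest naive level.

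Cd177 went against its place in the list as a neutrophil marker. It was already at 11.17 to 11.52 in naive colon, where Ngp, Camp and Mmp8 were at or near the floor, and it lay between 10.91 and 12.62 on all colitic arrays. Group means differed little: 11.98 ± 0.38 in combination, 11.97 ± 0.27 in anti-TWEAK, 11.77 ± 0.22 in TNFR-Ig, 11.85 ± 0.37 in control IgG, 11.83 ± 0.32 in untreated and 11.34 ± 0.11 in naive mice.

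The comparison of untreated colitic with naive mice asked how far the genes changed with colitis. All 7 members that were tested rose, where 22.2% of the genes tested rose, and their median log2 difference was 5.20 against -0.01 over all genes. Stfa2l1 rose by 8.35 ± 1.0 (SE, 327-fold; limma adjusted p = 4.82e-10) and Fpr2 by 8.08 ± 0.84 (270-fold; adjusted p = 4.45e-12). Mmp8 rose by 6.93 ± 1.3, Ngp by 5.20 ± 1.3 (adjusted p = 0.00086), Csf3r by 3.34 ± 0.67 and Ltf by 3.21 ± 0.89 (adjusted p = 0.0022). Cd177 rose by 0.57 ± 0.15 (1.48-fold; adjusted p = 0.00157). These fitted differences allow for the experiment, and with naive values at the floor their size is bounded by it. Camp, tested with no filter, had a difference of 0.71 ± 0.30 (limma adjusted p = 0.0589), which was 0.18 (0.14) without the untreated mouse at 7.17 and 0.22 (0.000657) in experiment 10 alone. It passed without 4 other untreated mice in turn: replicates 1 and 5 of experiment 7 and 1 and 3 of experiment 10 (0.0264 to 0.0326). By exact permutation, Camp in experiment 10 alone had p = 0.0909 (two-sided, unadjusted), with all 8 naive mice at the floor.

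Fixed lists of other genes transcribed in neutrophils, chosen with earlier results of these data known, mostly moved the same way. Not all of these genes are confined to neutrophils. Some were already high in naive colon, with means of 13.56 for Pglyrp1, 12.58 for Lyz2, 14.18 for Mxd1 and 13.57 for Anxa1, and others, such as Clec4e at 2.08, were at the floor. Of 11 other genes of specific and gelatinase granules that were tested, 11 rose, among them Chil3 by 9.02 ± 1.1, Lcn2 (lipocalin 2, which captures bacterial iron carriers) by 8.37 ± 0.87, Mmp9 (gelatinase B) by 7.15 ± 0.51 and Ifitm6 by 6.86 ± 0.90. Among 15 other genes of mature neutrophils 14 rose, led by Clec4d, S100a8, S100a9 and Clec4e with 9.90 ± 0.60, 9.77 ± 0.72, 7.91 ± 0.65 and 7.91 ± 1.1, while Mxd1 fell by 0.30. Ligands and regulators rose in 9 of 10 cases; the chemokine genes Cxcl2, Cxcl5 and Cxcl1 had differences of 9.11 ± 0.82, 7.44 ± 0.45 and 6.33 ± 0.76, and the cytokine gene Il6 had 5.66 ± 1.0. Macrophage markers moved as well: 10 of 10 rose, with summed log2 levels of 13.94 to 14.85 in untreated and 13.10 to 13.53 in naive mice, and their part in the members' change was not tested. Markers of the colon wall moved the other way, with 6 of 8 epithelial genes lower (summed log2 levels of 17.05 to 17.22 in untreated and 17.29 to 17.35 in naive mice) and 5 of 5 smooth muscle genes lower (15.66 to 16.22 and, in naive mice, 16.13 to 16.27). Over all genes, 3204 of 12535 were lower. Of 2 tested eosinophil and mast cell genes 1 rose and 1 fell, 0 of 5 B and T cell genes and 0 of 3 pancreas genes passed in limma (1 and 0 at an unadjusted p under 0.05), and the 3 measured red cell genes were at the floor on all arrays.

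**Figure D2:**
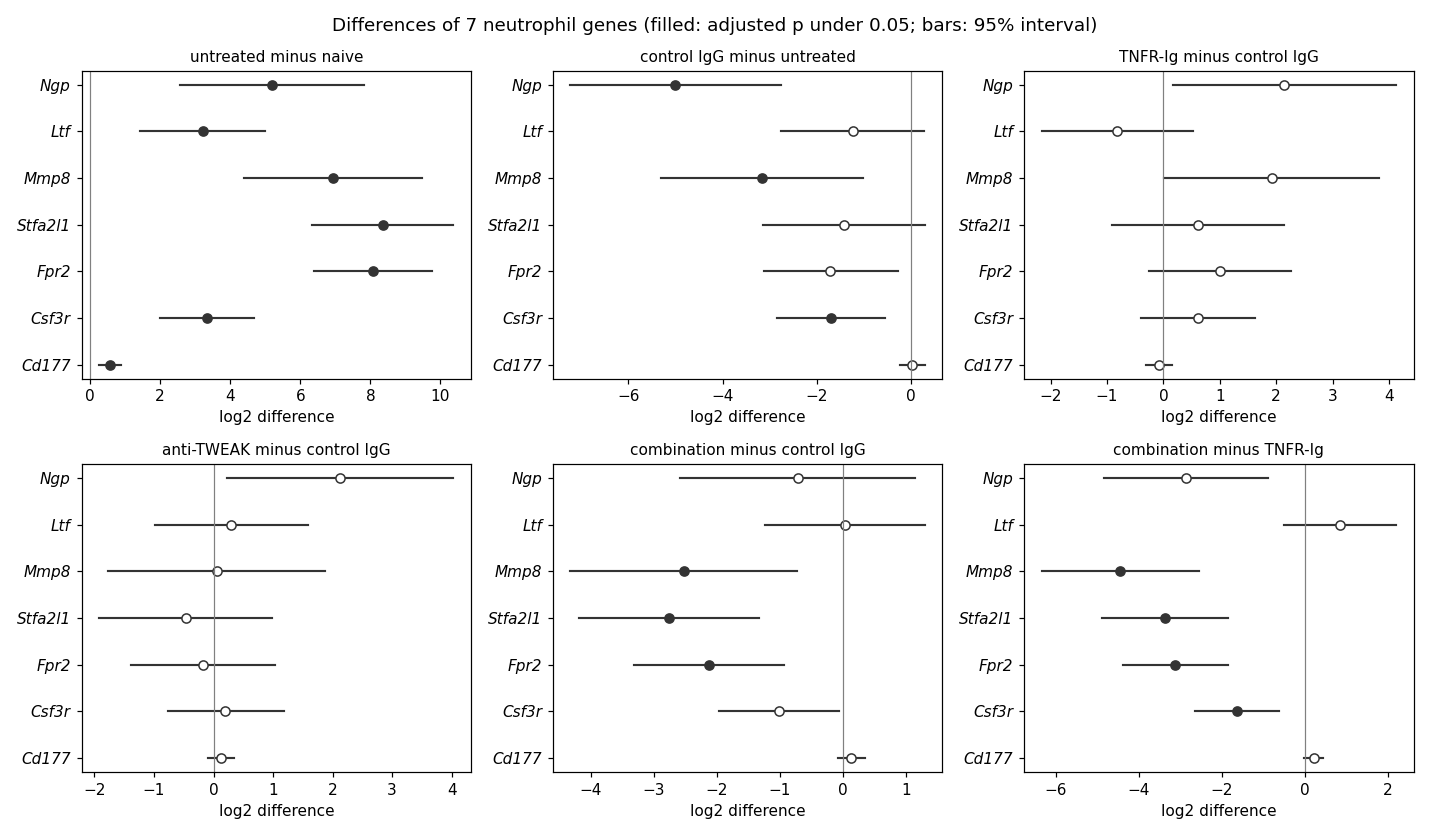
Log2 differences of the 7 tested genes in 6 comparisons from a linear model with experiment as a term; points are fitted differences, bars their 95% intervals, and filled points have an adjusted p under 0.05. All 7 genes were higher in untreated than in naive mice, Ngp stood out in control IgG minus untreated, and Mmp8, Stfa2l1 and Fpr2 were lower in combination than in control IgG and TNFR-Ig mice.

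Control IgG was compared with no treatment, since it is the control for the antibody arms. Ngp fell by 5.00 ± 1.1 (31.9-fold lower; limma adjusted p = 0.00367), the largest difference among the members, and Mmp8 and Csf3r fell by 3.16 ± 1.1 (adjusted p = 0.0472) and 1.69 ± 0.57 (adjusted p = 0.0455). Thus 3 of 7 fell, where 5.52% of genes did, and the members' median difference was -1.69 against 0.03 over all genes. Fpr2, with a difference of -1.71 ± 0.71 (adjusted p = 0.108), Stfa2l1, with -1.43 ± 0.86 (0.28), and Ltf, with -1.24 ± 0.76 (0.285), did not pass. Camp, tested with no filter, had a difference of -0.82 ± 0.26 (limma adjusted p = 0.0383; exact permutation p = 0.00992, two-sided, unadjusted). The size rested on the untreated mouse of experiment 7 at 7.17, replicate 3: without it, an alternative chosen after its value was seen, the difference was -0.21 (limma adjusted p = 0.118). It was -1.41 in experiment 7 alone (0.291) and -0.22 in experiment 10 alone (0.00682), and without replicate 2 of experiment 10 it was -0.85 (0.0678). Exact permutation gave Camp p = 0.0909 in experiment 7 alone and 0.109 in experiment 10 alone (two-sided, unadjusted). All 7 control IgG mice of experiment 10 were at the floor for Camp. The calls of Mmp8 and Csf3r were near the threshold: without a filter their adjusted p was 0.0614 and 0.0591, with the replicate block 0.158 and 0.11, and leaving out 1 of the 8 untreated mice in turn left 1 to 4 members called, Ngp among them each time. Only Ngp was called without replicate 2 or 3 of experiment 7, or replicate 1, 2 or 5 of experiment 10; without replicate 3 of experiment 10 Ngp and Csf3r were called.

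Among the fixed lists, 4 of 11 other granule genes fell with control IgG against no treatment: Ifitm6 by 2.52 ± 0.77, Cybb (a subunit of the phagocyte oxidase) by 1.11 ± 0.23, Olfm4 (olfactomedin 4) by 0.98 ± 0.30 and Lyz2 (lysozyme) by 0.52 ± 0.12. Of 15 mature neutrophil genes 4 fell, namely Prok2 by 2.45 ± 0.76 and the integrin genes Itgam, Itgb2 and Itgal by 1.50 ± 0.31, 1.30 ± 0.33 and 0.71 ± 0.23. Of 10 ligands and regulators 2 fell, Spi1, which encodes PU.1, by 0.95 ± 0.21 and Pecam1, an adhesion molecule of endothelium and leukocytes, by 0.64 ± 0.20. Macrophage markers fell in 8 of 10 cases, with summed log2 levels of 13.76 to 14.50 with control IgG and 13.94 to 14.85 in untreated mice; their part in the fall of Ngp was not tested.

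TNFR-Ig and anti-TWEAK alone were compared with control IgG to see what each did to these genes. With TNFR-Ig, 0 of 7 members passed in limma, where 4.08% of genes did (higher or lower), and 2 had an unadjusted p under 0.05, in limma Ngp and Mmp8 and by permutation Fpr2 and Mmp8. Ngp was 2.14 ± 0.99 higher (adjusted p = 0.198), Mmp8 1.92 ± 0.95 higher (0.235), Fpr2 1.00 ± 0.63 higher (0.366), and Ltf had -0.82 ± 0.67 (0.501). With anti-TWEAK, 0 of 7 passed in limma, where 2.8% of genes did, and 1, Ngp, had an unadjusted p under 0.05, against 0 of 8 by permutation. Its difference was 2.13 ± 0.95 (95% interval 0.23 to 4.03; adjusted p = 0.226), and those of the other 6 lay between -0.46 and 0.30. Against untreated mice, TNFR-Ig called 0 of 7 members in limma, where 3.01% of genes were called; 2 had an unadjusted p under 0.05, Ngp with -2.85 ± 1.2 and Ltf with -2.06 ± 0.79 (limma adjusted p = 0.166 and 0.131). By permutation these 2 had p = 0.0667 and 0.008, and the second member under 0.05 was Camp, at 0.0178, whose difference was -0.81 with no filter and -0.20 without the untreated mouse at 7.17.

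The combination was compared with control IgG to see what it did to these genes in colitis. Stfa2l1 fell by 2.76 ± 0.72 (6.77-fold lower; limma adjusted p = 0.00282), Mmp8 by 2.52 ± 0.90 (adjusted p = 0.027) and Fpr2 by 2.12 ± 0.59 (adjusted p = 0.00534). Thus 3 of 7 fell, against 17% of genes, and the members' median was -1.01 against 0.00 over all genes. Ngp and Ltf did not pass: Ngp had a difference of -0.72 ± 0.93 (95% interval -2.58 to 1.14; adjusted p = 0.59) and Ltf 0.03 ± 0.63 (-1.23 to 1.29; adjusted p = 0.977). Ngp, at the floor on 11 of 15 control IgG arrays, had little room to be lower. Csf3r had -1.01 ± 0.48 (adjusted p = 0.0971) and Cd177 0.13 ± 0.11 (adjusted p = 0.369).

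Against TNFR-Ig alone, Mmp8 fell in combination mice by 4.44 ± 0.95 (21.7-fold lower; limma adjusted p = 0.00401), Stfa2l1 by 3.37 ± 0.76, Fpr2 by 3.12 ± 0.63 (adjusted p = 0.0028) and Csf3r by 1.63 ± 0.51 (adjusted p = 0.0391). These were 4 of 7 members, where 4.5% of genes fell. Combination mice received an antibody at 10 mg/kg and TNFR-Ig mice none. An effect of antibody as such cannot be told apart from that of anti-TWEAK in this comparison. Ngp had -2.86 ± 0.99 (adjusted p = 0.0638) and Ltf 0.85 ± 0.67 (0.455). The call of Csf3r was lost with no filter (adjusted p = 0.0597), with every probe set tested (0.0734), with the replicate block (0.0668) and without 2 combination mice of experiment 7 whose arrays belonged to the other array run (0.0721), and that of Ngp was gained without those mice (0.0476), in experiment 10 alone (-3.55; 0.0261) and with array weights (-2.65; 0.0307). Against anti-TWEAK alone, 0 of 7 members and 0% of genes passed in limma; 5 members, Ngp, Fpr2, Stfa2l1, Mmp8 and Csf3r, had an unadjusted p under 0.05 (5 of 8 by permutation), with differences of -2.85 ± 0.95, -1.94 ± 0.61, -2.30 ± 0.73, -2.57 ± 0.92 and -1.22 ± 0.49 and adjusted p from 0.137 to 0.198. With array weights, 3 of these, Stfa2l1, Fpr2 and Mmp8, passed.

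Genes of the fixed lists, not all confined to neutrophils, fell in the comparisons of the combination with control IgG and with TNFR-Ig. Against control IgG, 9 of 15 mature neutrophil genes fell in combination mice, led by Clec4e with 3.40 ± 0.79, Il1r2 (a decoy receptor for interleukin 1) with 2.65 ± 0.64, Cxcr2 (the receptor for Cxcl1 and Cxcl2) with 2.37 ± 0.58 and Trem1 with 2.09 ± 0.54. Of the 11 other granule genes 6 fell, among them Chil3 by 2.56 ± 0.81 and Lcn2 by 1.81 ± 0.62, and of 10 ligands and regulators 6, Cxcl1 and Cxcl2 by 2.02 each. Macrophage markers fell in 1 of 10 cases, with summed log2 levels of 13.64 to 14.45 in combination and 13.76 to 14.50 in control IgG mice, and B and T cell markers rose in 3 of 5, with 7.56 to 9.91 in combination and 6.60 to 9.57 in control IgG mice; the part of these cells in the members' change was not tested. In the comparison with control IgG, 1777 of all 12535 genes rose. Against TNFR-Ig, 11 of 15 mature neutrophil genes, 8 of 11 other granule genes and 5 of 10 macrophage markers fell.

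Combination mice still differed from naive mice. Fpr2 was 4.25 ± 0.75 higher (19.1-fold; limma adjusted p = 1.35e-05), Stfa2l1 4.17 ± 0.90 (18.0-fold; adjusted p = 0.00032) and Cd177 0.73 ± 0.14 (adjusted p = 3.74e-05), which made 3 of 7 members, where 13.3% of genes rose. Mmp8 had 1.25 ± 1.1 (0.442), Csf3r 0.64 ± 0.60 (0.461) and Ltf 2.00 ± 0.79 (0.0532). An unadjusted p under 0.05 was seen for 4 of 7 members in limma and 5 of 8 by permutation. By exact permutation in experiment 10 (two-sided, unadjusted), Mmp8 had 1.68 (p = 0.0126), Ltf 2.02 (p = 0.0188) and Csf3r 0.72 (p = 0.123). All 8 naive mice were at the floor for Mmp8. Ltf passed in experiment 10 alone, which holds both groups (2.02; limma adjusted p = 0.0387), with no experiment term (0.0183), with array weights (0.0215) and without the 2 combination arrays of the other array run (0.0414). For Ngp the fitted difference was -0.52 ± 1.2 (adjusted p = 0.781) although the plain means were 2.65 in combination and 2.08 in naive mice; in experiment 10 all 7 combination and 8 naive mice were at the floor and the difference was 0.00. Other cell types differed too: 8 of 10 macrophage markers and 1 of 5 B and T cell genes were higher, and 2 of 8 epithelial and 3 of 5 smooth muscle genes lower. Over all genes, 1501 of 12535 were lower. Summed log2 levels of the macrophage markers were 13.64 to 14.45 in combination and 13.10 to 13.53 in naive mice, and their part in the members' difference was not tested.

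The 2 experiments were then compared for each treatment effect. Differences of an effect, experiment 10 minus experiment 7, passed in limma for 0 of 7 members in each of 4 comparisons: control IgG with untreated mice, and TNFR-Ig, anti-TWEAK and the combination with control IgG. Background calls in these were 0.016%, 0%, 1.72% and 0.0319%, and the members with an unadjusted p under 0.05 numbered 1, 1, 0 and 0. For Mmp8 the fall with control IgG was -5.24 ± 1.3 in experiment 10 (limma adjusted p = 0.00822) and -1.20 ± 1.6 in experiment 7 (0.907), but the difference between them, -4.04 ± 2.1, had an adjusted p of 0.392. Ngp fell by 5.34 ± 1.1 in experiment 10 (adjusted p = 0.00329) and had -4.67 ± 1.8 in experiment 7 (0.281). Experiment 10 alone called Ngp, Mmp8, Fpr2 and Csf3r lower with control IgG, where 5.11% of genes were lower, and experiment 7 alone called 0 members, where 0.0479% of genes were called and 1 member had an unadjusted p under 0.05.

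Within experiment 10, TNFR-Ig mice had more Ngp and Mmp8 than control IgG mice, by 3.55 ± 0.99 (limma adjusted p = 0.0142) and 3.95 ± 1.2 (adjusted p = 0.0204), where 8.36% of genes were higher. Macrophage markers moved with them, with summed log2 levels in experiment 10 of 14.51 to 15.00 with TNFR-Ig and 13.99 to 14.34 with control IgG, and 4 of 10 were higher over both experiments; their part in the rise was not tested. In experiment 7, where 0% of genes and 0 members were called in limma and 0 members had an unadjusted p under 0.05, these differences were 0.77 ± 1.6 and 0.00 ± 1.4, and the differences between experiments, 2.78 ± 1.9 and 3.95 ± 1.8, did not pass (adjusted p = 0.624 and 0.447). For the combination against control IgG, Stfa2l1 had -2.76 ± 1.0 in experiment 10 (limma adjusted p = 0.0547) and -2.76 ± 0.94 in experiment 7 (0.0589), and Fpr2 had -2.19 ± 0.73 (0.0351) and -2.05 ± 0.89 (0.128). Mmp8 had -1.12 ± 1.1 (0.524) and -3.75 ± 1.3 (0.06). The share of genes lower was 7.57% in experiment 10 and 5.47% in experiment 7.

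**Figure D3:**
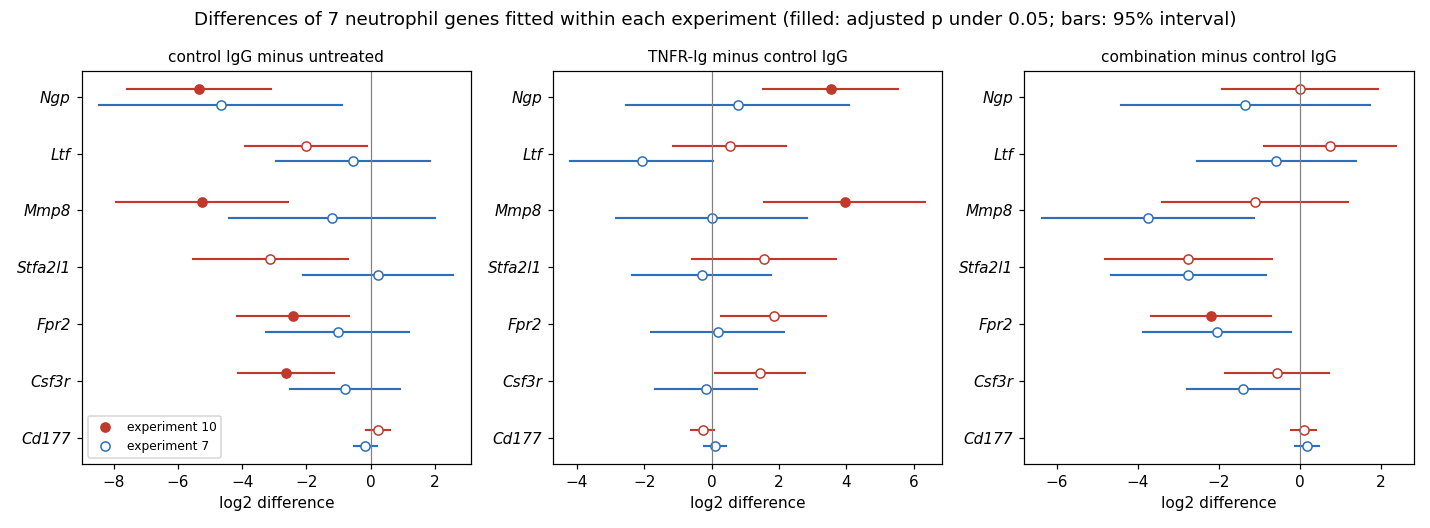
Log2 differences of the 7 tested genes fitted inside experiment 10 (red, above) and experiment 7 (blue, below), with 95% intervals and filled points for an adjusted p under 0.05. Stfa2l1 and Fpr2 had nearly equal values in both experiments for combination minus control IgG, while Mmp8 and Ngp passed in experiment 10 only in TNFR-Ig minus control IgG, a difference between experiments that did not itself pass.

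Levels within a group were also set against each other, experiment 10 minus experiment 7. The array run changed with the experiment for all arrays but the 2 combination arrays of experiment 7, so that run and experiment cannot be told apart in these differences. In anti-TWEAK mice Ngp was lower in experiment 10 by 5.01 ± 1.3 (limma adjusted p = 0.00302), Mmp8 by 3.49 ± 1.3 (0.0298), Stfa2l1 by 2.55 ± 1.0 (0.0496) and Fpr2 by 2.24 ± 0.86 (0.0398). These were 4 of 7 members, where 9.95% of genes were lower. The Actb difference between 3′ and 5′ probe sets also differed, at 1.13 to 1.23 in anti-TWEAK mice of experiment 10 and 0.93 to 1.12 in experiment 7. In combination mice it was 1.12 to 1.50 and 0.98 to 1.11. Its part in these differences was not tested. In combination, TNFR-Ig, control IgG and untreated mice 0 members passed in limma, where 26.2%, 4.12%, 4.84% and 0.566% of genes did, and 0, 0, 3 and 0 members had an unadjusted p under 0.05.

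The members were next compared over the 64 colitic arrays after the mean of each group and experiment was removed, with 28 pairs and permutation p-values adjusted over them. Stfa2l1, Fpr2, Csf3r and Mmp8 ran together. Stfa2l1 and Fpr2 had r = 0.96 and rho = 0.97, Fpr2 and Mmp8 r = 0.90 and rho = 0.93, and Csf3r and Mmp8 r = 0.85 and rho = 0.87 (permutation p = 1e-05 for each, the smallest the permutations can give; adjusted p = 2.8e-05 for r and 3.11e-05 for rho). Without the 2 arrays farthest from the median, r was 0.96, 0.91 and 0.83. The arrays share their tissue and platform, and RNA quality and cell content were not separated.

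The specific granule genes Ngp, Camp and Ltf ran less closely with them and with each other. Ngp had r = 0.63 with Mmp8, 0.60 with Fpr2, 0.50 with Stfa2l1 and 0.33 with Ltf (permutation p adjusted over the pairs 2.8e-05, 2.8e-05, 2.8e-05 and 0.0107; rho = 0.62, 0.65, 0.59 and 0.29). The value for Stfa2l1 was 0.20 in experiment 10, where most Ngp levels were at the floor, and 0.72 in experiment 7. Without the 2 farthest arrays these 4 values were 0.58, 0.57, 0.46 and 0.26. Ltf with Stfa2l1 had r = 0.46 and rho = 0.38 (permutation p adjusted over the pairs 0.00194 for r), and 0.36 without the 2 farthest arrays. Camp, at the floor on most arrays, had r = 0.26 and rho = 0.47 with Ngp (0.00593) and r = 0.35 and rho = 0.35 with Ltf (0.0111); the r with Ltf was 0.18 without the 2 farthest arrays.

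Cd177 ran against Stfa2l1, Fpr2, Mmp8 and Csf3r. Its r was -0.57 with Stfa2l1, -0.54 with Fpr2, -0.54 with Mmp8 and -0.50 with Csf3r (permutation p adjusted over the pairs 2.8e-05, 4.7e-05, 4.7e-05 and 0.000237; rho = -0.53, -0.52, -0.55 and -0.49). With Stfa2l1 it was -0.62 in experiment 10 and -0.52 in experiment 7, and -0.54 without the 2 farthest arrays. With the granule genes Cd177 had r = -0.11 for Ngp, -0.18 for Ltf and 0.17 for Camp (rho = -0.14, -0.06 and -0.03; permutation p adjusted over the pairs 0.331, 0.243 and 0.464 for r), and -0.07, 0.00 and 0.03 without the 2 farthest arrays.

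**Figure D4:**
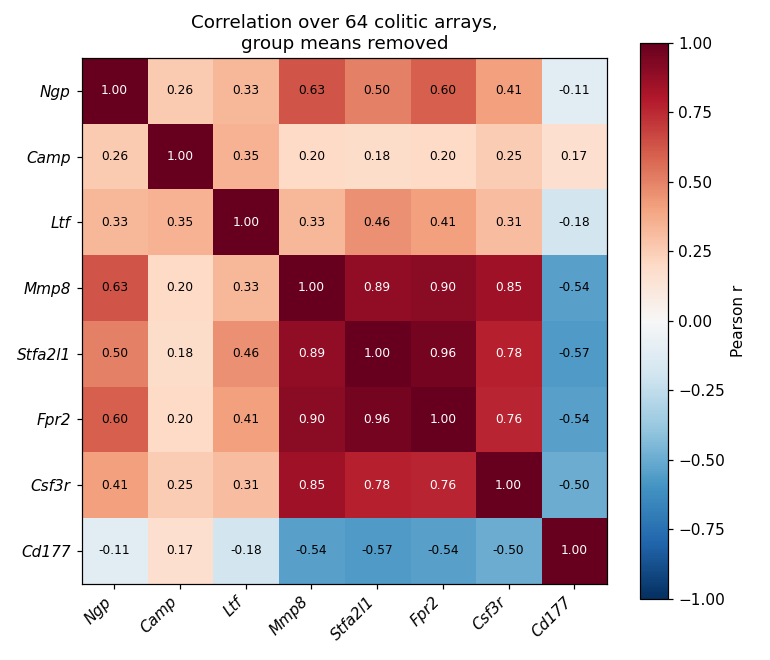
Pearson r between the 8 measured genes over the 64 colitic arrays after removing the mean of each group and experiment, from -1 (blue) to 1 (red). Stfa2l1, Fpr2, Csf3r and Mmp8 form a block between 0.76 and 0.96, Ngp, Camp and Ltf are paired at 0.26 to 0.35, and Cd177 is negative with the block.

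Read array by array, Stfa2l1, Fpr2 and Mmp8, the last stored in granules, were set against Ngp at and above the floor. On the 34 colitic arrays with Ngp at the floor, Stfa2l1 ran from 2.08 over a median of 7.86 to 11.56, Fpr2 from 4.42 over 8.37 to 11.01 and Mmp8 from 2.08 over 3.13 to 8.80. On the 30 with Ngp above the floor, Stfa2l1 ran from 8.65 to 12.91, Fpr2 from 9.31 to 12.70 and Mmp8 from 6.14 to 11.47. The lowest Stfa2l1 and Fpr2 levels on arrays with Ngp above the floor, 8.65 and 9.31, were taken as cut-offs. By this choice no such array could lie below them. Of the 45 arrays with Stfa2l1 at 8.65 or more, 15 had Ngp at the floor, and of the 41 with Fpr2 at 9.31 or more, 11 did. Both counts depend on the floor of the Ngp probe set, where a level is bounded from above only.

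**Figure D5:**
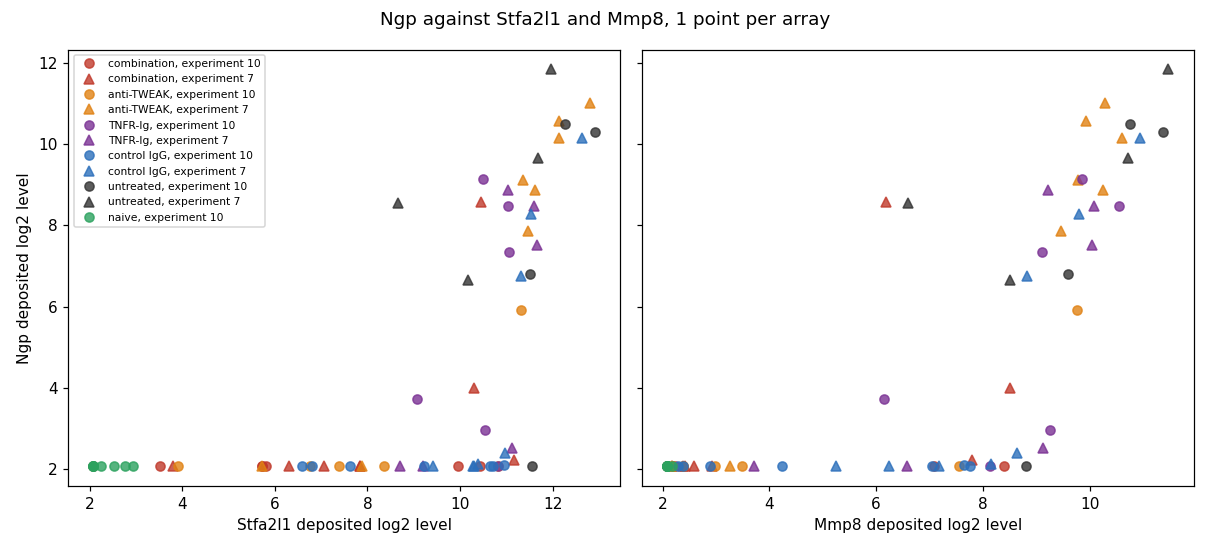
Ngp level against Stfa2l1 (left) and Mmp8 (right), 1 point per array, coloured by group, with circles for experiment 10 and triangles for experiment 7. Ngp stays at 2.08 over Stfa2l1 levels up to 11.56 and leaves the floor only at Stfa2l1 of 8.65 or more.

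To set specific granule genes against mature-cell genes, the mean of Ngp, Camp and Ltf minus the mean of Stfa2l1, Fpr2 and Csf3r was taken on each array. Mmp8, which is stored in granules but ran with these mature-cell genes, and Cd177 were left out of this score. Only differences of the score between arrays have a meaning. It was -2.90 ± 1.46 in combination, -3.63 ± 1.25 in anti-TWEAK, -4.94 ± 1.20 in TNFR-Ig, -4.64 ± 1.24 in control IgG, -3.90 ± 1.81 in untreated and -0.43 ± 0.17 in naive mice (SD). The colitic groups overlapped, with the lowest array at -7.00 in TNFR-Ig and the highest at -0.95 in combination mice. Untreated mice had -4.91 ± 1.18 in experiment 10 and -2.88 ± 1.88 in experiment 7 (n = 4 each), and control IgG mice had -4.71 ± 1.45 and -4.57 ± 1.12. The score carries no test, and where Ngp and Camp are at the floor it follows the mature-cell genes.

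The genes most like Ngp over these 64 arrays were Marco, a scavenger receptor of macrophages, with r = 0.83, then Rasa3, Eif4ebp1, Vldlr and Ctla2b with 0.77 to 0.78. Ranked by r with Ngp among all tested genes, Mmp8 took rank 156, Fpr2 221 and Ltf 1821. Marco, which stands on the fixed list of macrophage markers and was also highest in untreated mice, averaged 2.75 ± 1.45 in combination, 4.81 ± 2.85 in anti-TWEAK, 4.72 ± 2.57 in TNFR-Ig, 2.89 ± 1.71 in control IgG, 6.61 ± 2.89 in untreated and 2.11 ± 0.03 in naive mice. The genes most like Csf3r were Cd300ld and Klra2, both with 0.93, Trem1 and Slc15a3, both with 0.92, and Pygl with 0.91, of which Trem1 belongs to the fixed list of mature neutrophil genes. For Cd177, a list added after its values were seen, they were Tnfsf13os with 0.72, Ccl28, a chemokine gene of mucosal epithelia, Wfdc18 and Ms4a8a with 0.70, and Clca3b with 0.68.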

How the data were processed

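Colon RNA was hybridised to 72 Affymetrix 3′ expression arrays. The deposited values are on a log2 scale, as their range shows, and were normalized by the authors. RMA, GCRMA, R 2.11.1 and limma 3.4.5 are named per the submitters' processing notes, which do not tie a tool to this table. Of 45101 probe sets, the 34958 with 1 symbol in the platform annotation were kept (932 had several, 9211 were not listed), with symbols brought up to date through Entrez identifiers for 99.4%. A gene was read on its brightest probe set by mean. Genes with a mean under the 40th percentile of probe set means (2.42) were left out. limma 3.58.1 (R 4.3.3) fitted 6 groups plus a term for the experiment to 12535 genes, with Benjamini-Hochberg adjustment over them and calls at an adjusted p under 0.05. Differences between experiments were contrasts in a model with 1 mean for each group and experiment. Single members were also tested by two-sided permutation of labels within experiments (100000 draws, or all arrangements where fewer). The number of arrays limits the precision. Replicate numbers did not pair the arrays: deviations from group means had a median correlation of 0.00 over 132 pairs with the same number and 0.01 over 921 with different numbers.

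The members, lists and tests were chosen with earlier results of these data known. Named genes are the members, up to 4 called genes of each neutrophil list and comparison by size, and the 5 genes most like Ngp and Csf3r; those most like Cd177 were added after values were seen. Without Fpr1 and Retnlg, the score has 3 mature-cell genes and correlations cover 28 pairs. Promoters are RefSeq windows on GRCm38.p6, found by symbol for 8 of 8 measured members. The model was tested on simulated data. Alternatives were no filter, every probe set, no experiment term, the replicate block, each experiment alone, quantile normalization, array weights, trend and robust moderation, only the compared groups, and arrays left out. Those for Camp with no filter were chosen after seeing the data. matplotlib 3.10.9 drew the plots.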

Additional observations from a re-analysis of the deposited data

Results flagged for a closer look

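Arrays far from the others of their group were looked for in each member and group of 4 to 8 arrays. The test used marks about 1 in 20 groups by chance where levels spread normally. Of 84 sets, 10 held such an array. In some sets most levels were tied at the floor or another shared value. That rate does not hold there, so 10 of 84 cannot be set against it. Untreated mice were tested by experiment and pooled, so Camp at 7.17 is counted for both. Ngp was 8.58 in 1 combination mouse of experiment 7, where the next highest had 4.01, and 5.92 in 1 anti-TWEAK mouse of experiment 10, where the other 5 were at 2.08. The combination mouse with 8.58 was 1 of the 2 whose arrays belonged to the other array run. Camp was 7.17 in 1 untreated mouse of experiment 7, the same that had the highest Ngp (11.84) and Ltf (9.68) of all arrays, and the next highest untreated mouse had 2.63, whether experiment 7 or all 8 untreated mice were taken. In anti-TWEAK mice of experiment 7 Camp reached 3.37, next to 2.51. Low values were seen in 5 sets. In TNFR-Ig mice of experiment 10, 1 mouse had both the lowest Stfa2l1, 9.07 next to 10.49, and the lowest Csf3r, 2.77 next to 5.14. In naive mice 1 animal had Fpr2 at 2.50, next to 2.86, and Csf3r at 2.34, next to 2.52. Cd177 was 10.91 in 1 combination mouse of experiment 7, next to 11.80, and this mouse had the highest Stfa2l1 of its group, 11.17.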

How the results depend on the processing

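Of 911 values of single members under alternatives, 824 kept their direction and their side of the threshold, 41 lost a call, 24 gained one and 22 changed sign, including those for Camp with no filter, which were chosen after its values were seen. With control IgG against untreated mice, 3 members were called; the count was 1 with no filter, every probe set, no experiment term or the replicate block, 0 in experiment 7 alone, and 1 to 4 without single untreated arrays. For the combination against control IgG it was 0 in experiment 7 and 1 in experiment 10, against TNFR-Ig 0 in experiment 7, and against anti-TWEAK 3 with array weights, where it was 0 otherwise. TNFR-Ig against control IgG had 2 in experiment 10 alone. The replicate block left 3 of 4 members called for the combination against TNFR-Ig and, apart from control IgG against untreated mice, changed no other count. Fewer arrays enter each experiment alone; the causes of the other changes were not tested. No difference that changed sign was called in the main model. Without the experiment term, Ngp in combination against naive mice was 0.57. In experiment 7 alone, control IgG minus untreated was 0.23 for Stfa2l1 and -0.17 for Cd177, TNFR-Ig minus control IgG -0.30 for Stfa2l1, -0.17 for Csf3r and 0.10 for Cd177, anti-TWEAK minus control IgG -0.34 for Ltf and 0.32 for Fpr2, combination minus control IgG -0.59 for Ltf, and combination minus anti-TWEAK -0.07 for Cd177. In experiment 10 alone, TNFR-Ig minus control IgG was 0.53 for Ltf, and anti-TWEAK minus control IgG -0.02 for Cd177 and -0.17 for Mmp8. With the replicate block Cd177 was -0.02 in control IgG minus untreated and -0.01 in combination minus anti-TWEAK. With array weights Cd177 was -0.03 in control IgG minus untreated and Ltf -0.24 in combination minus control IgG; with only the compared groups, Mmp8 was -0.03 in anti-TWEAK minus control IgG. Without single untreated arrays, Cd177 ran from -0.04 to 0.11 in control IgG minus untreated and from -0.12 to 0.02 in TNFR-Ig minus untreated. The granule score of naive mice was -2.08 with all other members as mature-cell genes, in place of -0.43. No other probe set of a member could be tried, as each has 1. Values at the floor bound a level from above only, and this limits what can be read of Ngp and Camp.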
